A study of Mus musculus with 60 samples.

Results

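The transcripts of 10 circadian clock genes were followed in the prefrontal cortex of young mice that had received fluoxetine, lithium or vehicle. The genes were Arntl, Per1, Per2, Per3, Cry1, Ciart, Nr1d1, Nr1d2, Dbp and Tef, taken as the rows of the deposited table whose Ensembl identifiers carry these symbols. All 10 were found among the 18088 genes of the table, and all 10 passed the filter on low values. The mice were C57BL/6J animals aged 25 postnatal days, labelled heterozygous (HT) or wild type (WT) for Trip12, a ubiquitin ligase gene. Drugs reached the pups through maternal milk from postnatal day 3 to 24, a span of 3 weeks. The 12 groups of 5 libraries each were HT and WT mice given fluoxetine, lithium or vehicle, males and females separately. In the labels, neither the allele, the vehicle, the dose, the animals, the litters nor the time of day of collection is stated. The p-values below therefore measure the spread among these samples. Since drugs were given through the dam, libraries of 1 group, or of several groups given the same treatment, may share a litter.

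The clock is a feedback loop that runs in nearly every cell. ARNTL (BMAL1), paired with CLOCK or NPAS2, switches on genes with E-boxes in their promoters, among them the Per and Cry repressors, which then shut ARNTL down, as does CIART, also known as CHRONO. The same activator drives Nr1d1 and Nr1d2, whose REV-ERB products repress Arntl through ROR elements, and Dbp and Tef, whose products act on D-boxes in clock outputs. In tissues with a running clock, Arntl therefore peaks at about the opposite time of day to Nr1d1, Dbp and Ciart, while Per2 and Cry1 peak later than these. Per1 and Per2 also respond acutely to neuronal activity and to glucocorticoids. In the cortex, clock transcripts come from neurons and glia alike, and in bulk tissue fewer cells of a type and less RNA per cell cannot be told apart.

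The response elements in the members' promoters are shown to place each member against the elements through which the loop is known to act. RefSeq promoters (GRCm38.p6, 250 bases before to 50 bases after a start) were matched for 9 of 10 members, with 12 promoters in all. Both strands were searched for the E-box CACGTG, its variant the E-prime box CACGTT, the D-box TTANGTAA, the ROR element core TAGGTCA or TGGGTCA, and the cyclic-AMP response element TGACGTCA. Of 32851 promoters of the same length, 7.15% held the E-box, 4.685% the E-prime box, 2.323% the D-box, 6.453% the ROR core and 1.79% the cyclic-AMP element. Ciart held 3 E-boxes, Cry1 an E-box and an E-prime box, Nr1d1 an E-prime box, and Per3 2 D-boxes, and each of these stretches ends at the base before the start. The E-box was also found in a promoter of Per1 and in both promoters of Tef. The ROR core was found in Arntl alone among the members. The stretches follow on the strand of the gene, with each matched motif in capitals, and the E-prime boxes read AACGTG since they match on the other strand.
Ciart, chr3:95882229-95882478, minus strand: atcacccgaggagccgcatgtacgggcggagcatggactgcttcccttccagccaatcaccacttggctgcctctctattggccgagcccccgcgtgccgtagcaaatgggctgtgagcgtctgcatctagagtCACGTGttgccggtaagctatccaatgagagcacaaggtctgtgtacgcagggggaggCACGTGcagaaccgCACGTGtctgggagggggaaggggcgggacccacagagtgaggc
Cry1, chr10:85185055-85185304, minus strand: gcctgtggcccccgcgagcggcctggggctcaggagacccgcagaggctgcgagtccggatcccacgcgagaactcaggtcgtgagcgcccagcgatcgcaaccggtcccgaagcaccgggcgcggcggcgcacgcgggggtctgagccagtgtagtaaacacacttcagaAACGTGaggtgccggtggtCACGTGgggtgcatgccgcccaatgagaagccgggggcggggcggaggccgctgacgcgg
Nr1d1, chr11:98775378-98775627, minus strand: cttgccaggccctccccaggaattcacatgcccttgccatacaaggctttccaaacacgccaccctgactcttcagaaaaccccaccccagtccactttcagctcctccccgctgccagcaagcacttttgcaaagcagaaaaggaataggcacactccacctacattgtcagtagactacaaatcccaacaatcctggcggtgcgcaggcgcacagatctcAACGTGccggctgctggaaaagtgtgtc
Per3, chr4:151044666-151044915, minus strand: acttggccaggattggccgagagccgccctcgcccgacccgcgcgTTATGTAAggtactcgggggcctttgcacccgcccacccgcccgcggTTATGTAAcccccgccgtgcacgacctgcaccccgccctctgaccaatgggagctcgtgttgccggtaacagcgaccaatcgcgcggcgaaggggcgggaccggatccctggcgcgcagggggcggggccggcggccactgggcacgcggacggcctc
Arntl, around the ROR core 31 bases after its second start, chr7:113207531-113207557, plus strand: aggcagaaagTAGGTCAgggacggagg
None of these motifs was found in the windows of Dbp and Nr1d2, and the cyclic-AMP element was found in 0 member promoters. A match describes letters in this window, and the lack of one says only that those letters are not there.

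Per kilobase of exon, Tef had the highest level, at 1129 ± 80.2 normalized counts (SD over 60 libraries), followed by Nr1d1 at 945 ± 141. Dbp at 573 ± 110, Per1 at 571 ± 78.7 and Nr1d2 at 560 ± 64.6 normalized counts per kilobase lay close together. Lower came Per2 at 261 ± 48.6, Ciart at 185 ± 38.1 and Per3 at 146 ± 18.3 normalized counts per kilobase. Cry1 at 126 ± 18.5 and Arntl at 118 ± 12.9 normalized counts per kilobase came last. Neighbours in this order differed by less than the sum of their SDs, apart from Nr1d1 and Dbp, and Nr1d2 and Per2. Among replicates of a group, Dbp and Ciart varied most, with a within-group SD of 0.22 and 0.21 on the log2 scale, and Tef least, with 0.09. Between the lowest and highest of the 60 libraries, Ciart differed 2.39-fold and Tef 1.41-fold.

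The genes lie on GRCm38 at chr11:69095217-69109960 (Per1), chr1:91415982-91459324 (Per2), chr4:151003652-151044665 (Per3), chr10:85131700-85185064 (Cry1) and chr3:95878503-95882251 (Ciart). Dbp lies at chr7:45705088-45710203, Tef at chr15:81802421-81826863, Nr1d1 at chr11:98767932-98775333, Nr1d2 at chr14:18204054-18239127 and Arntl at chr7:113207465-113314126. Exons of other genes cover 8.55% of the exon bases of Nr1d1 (Thra) and 18.0% of those of Dbp (Sphk2). For Tef the share was 2.45% (Gm17597). Whether the counting used strand is not given in the sources used here, so reads in those stretches cannot be assigned with certainty. Thra did not pass the test for lithium against vehicle (log2 difference 0.05, adjusted p = 0.333). Sphk2 did not pass for fluoxetine against vehicle in HT females (0.00, adjusted p = 0.995). Over all mice, however, Sphk2 was called lower with fluoxetine, with a difference of -0.15 (SE 0.05, adjusted p = 0.0224). With lithium it had 0.08 in HT females (adjusted p = 0.749) and -0.24 in WT males (adjusted p = 0.155).

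Sequencing depth, recovered from the steps in the values, was 32654674 to 36624113 reads in fluoxetine libraries, 25135647 to 35858996 reads in lithium libraries and 26591584 to 30985097 reads in vehicle libraries. Fluoxetine and vehicle libraries did not overlap in depth, so a fluoxetine effect and whatever went with depth cannot be told apart by design. The same holds for lithium in females, at 32090916 to 35178729 reads in HT lithium females and 26591584 to 30985097 in HT vehicle females, and 33917494 to 35858996 in WT lithium females and 28103069 to 29298020 in WT vehicle females. Trip12 was higher by 0.11 on the log2 scale (SE 0.02) in libraries labelled HT than in those labelled WT (limma, adjusted p = 0.00137), which is not the direction a lost copy gives. The allele is not named in the labels, so the transcript does not check the genotype, and HT and WT stand for the labels throughout. With lithium over all mice, 22.6% of 17804 genes tested were called at an adjusted p under 0.05, 1993 of them lower. Of 15 striatal markers, 10 were called lower, with summed levels of 7116 to 9816 normalized counts in lithium libraries and 6531 to 22164 in vehicle libraries. In the same comparison 8 of 10 oligodendrocyte markers were called lower. Their summed levels were 56866 to 186556 normalized counts in lithium libraries and 73199 to 196540 in vehicle libraries. Markers of cortical excitatory neurons summed to 52276 to 75203 normalized counts over all 60 libraries, and markers of the olfactory bulb, which adjoins the dissected region, to 1092 to 17277. The part of these markers in the results below was not tested.

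**Figure D1:**
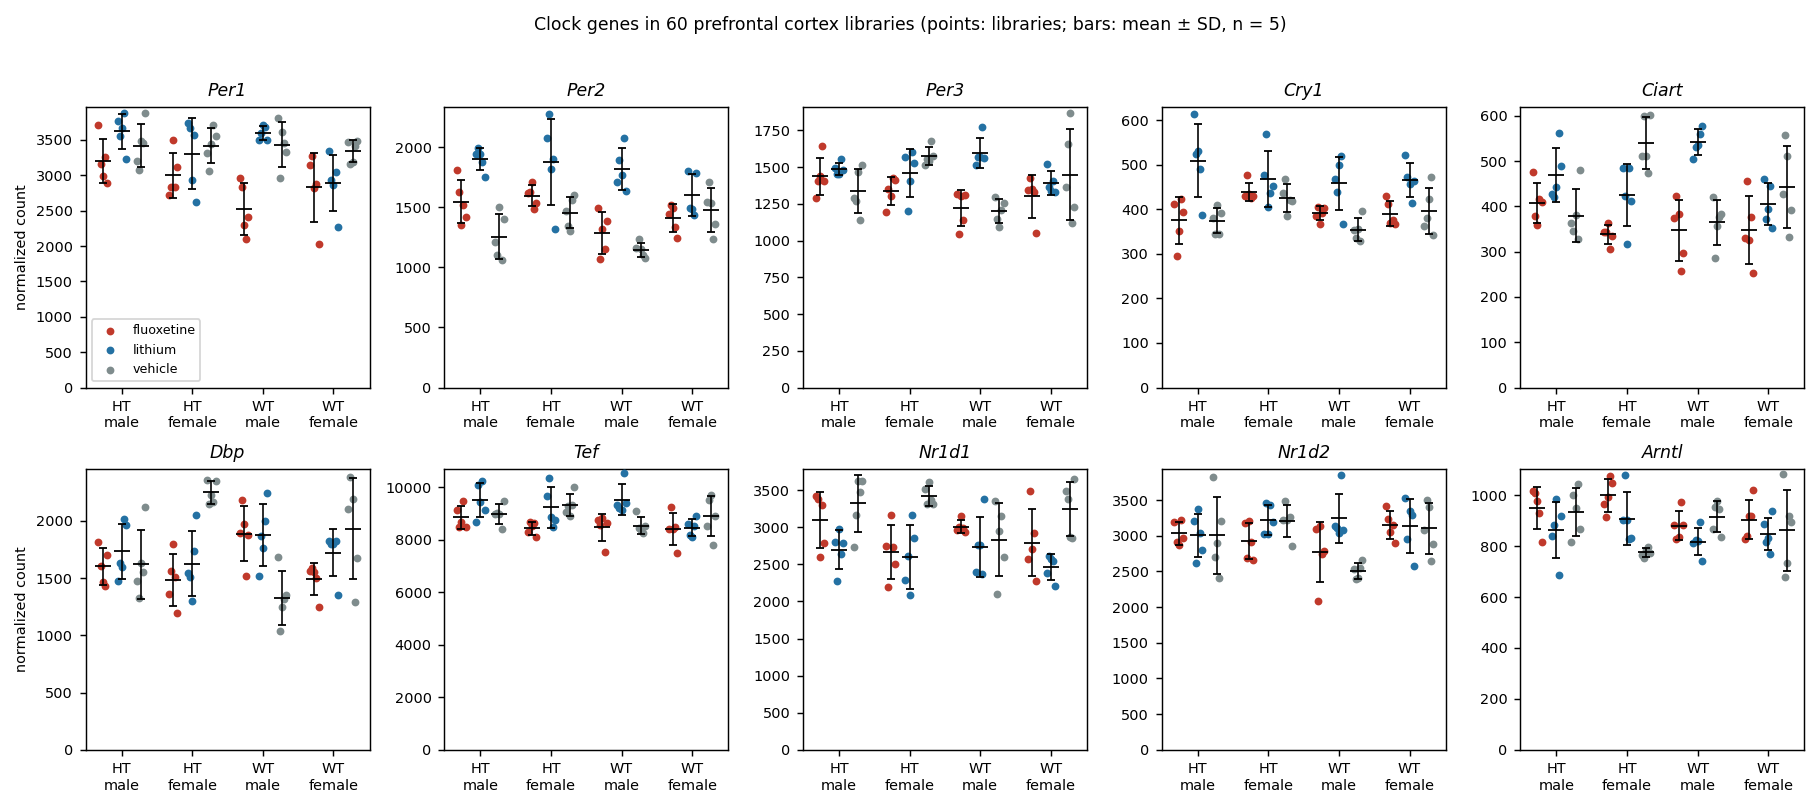
Normalized counts of the 10 clock genes (vertical axes) in each of the 60 libraries (points), by group of 5 along the horizontal axis, with mean ± SD as bars and colours for the treatment. Per2 in lithium males lies between 1634 and 2079 normalized counts, above all vehicle males (1063 to 1501).

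Lithium against vehicle over both genotypes and sexes asked how the drug, a mood stabiliser, moved the clock transcripts. Per2 and Cry1, both repressors of the loop, rose with lithium, and Nr1d1, the REV-ERB alpha gene, fell. Per2 ranged over 1322, 1810 and 2276 normalized counts (lowest, median, highest) in 20 lithium libraries, against 1063, 1323 and 1711 in 20 vehicle libraries. The lithium median lay above the highest vehicle library, although the ranges overlapped. The log2 difference was 0.43 (SE 0.05), with 18 of 20 lithium libraries above the mean of the vehicle group of their own genotype and sex (limma, adjusted p = 9.2e-09).

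Cry1 ranged over 367, 470 and 615 normalized counts in lithium libraries and over 330, 383 and 472 in vehicle libraries. Lithium libraries were shifted upwards as a whole, with overlap, by 0.29 on the log2 scale (SE 0.05, limma adjusted p = 8.0e-06, 19 of 20 libraries). Nr1d1 ranged over 2087, 2617 and 3378 normalized counts in lithium libraries and over 2105, 3335 and 3647 in vehicle libraries. Most lithium libraries thus lay under the vehicle median, and the log2 difference was -0.29 (SE 0.05, limma adjusted p = 9.8e-05, 19 of 20 libraries). Its paralogue Nr1d2, which encodes REV-ERB beta, had a difference of 0.10 (SE 0.05, adjusted p = 0.115), and Arntl, the target of both, one of -0.02 (SE 0.04, adjusted p = 0.831). Per1 had -0.03 (adjusted p = 0.712), Per3 0.11 (adjusted p = 0.0803), Ciart 0.10 (adjusted p = 0.262), Dbp 0.00 (adjusted p = 0.984) and Tef 0.04 (adjusted p = 0.332). In all, 3 of 10 members were called, 2 higher and 1 lower, beside 22.6% of all 17804 genes tested, so the count is near the background. The median log2 difference of the members was 0.07, against 0.00 over all genes. The 3 calls were kept in every alternative run, single libraries left out included.

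The lithium calls were then read within each genotype. HT and WT mice share no library, but they may share litters, so the genotypes are not known to be independent. In HT mice, Per2 rose by 0.48 on the log2 scale (SE 0.07, adjusted p = 6.0e-06), Cry1 rose by 0.28 (SE 0.07, adjusted p = 0.0030) and Nr1d1 fell by 0.35 (SE 0.08, adjusted p = 0.0011), with 14.6% of all genes called. In WT mice, Per2 rose by 0.39 (adjusted p = 0.00062) and Cry1 by 0.30 (adjusted p = 0.0048), with 4.57% of all genes called. Nr1d1 had a difference of -0.22 in WT mice (SE 0.08, adjusted p = 0.0898), in the same direction in 9 of 10 libraries. The difference between genotypes in the lithium response was 0.09 for Per2, -0.02 for Cry1 and -0.14 for Nr1d1, and no member passed in that test.

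**Figure D2:**
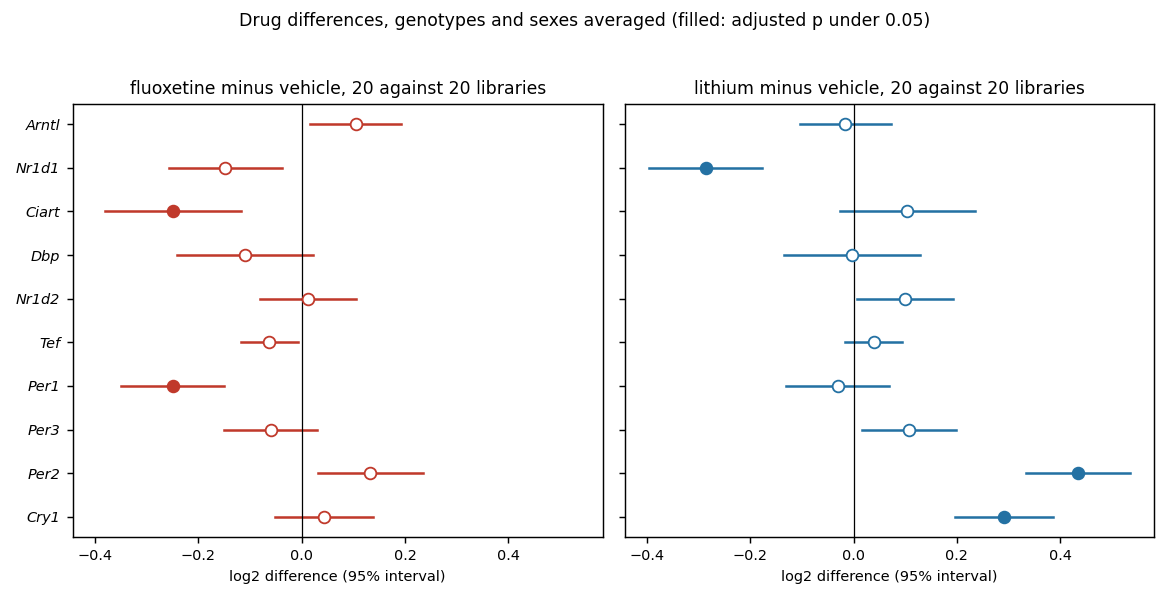
Log2 differences of each clock gene (rows) for each drug against vehicle, with 95% confidence intervals as lines and filled points for calls at an adjusted p under 0.05. Under lithium Per2 (0.43) and Cry1 (0.29) lie to the right of 0 and Nr1d1 (-0.29) to the left, while under fluoxetine Per1 (-0.25) and Ciart (-0.25) lie to the left.

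Within sex, Per2 and Cry1 rose with lithium in males of both genotypes. Per2 had 1942, 1991, 1947, 1880 and 1752 normalized counts in HT lithium males, against 1212, 1101, 1501, 1063 and 1403 in HT vehicle males. In WT mice it had 1714, 1894, 1769, 2079 and 1634 normalized counts in lithium males, against 1164, 1233, 1154, 1100 and 1082 in vehicle males. In neither genotype did lithium and vehicle males overlap, and the log2 differences were 0.61 in HT males (SE 0.10, adjusted p = 9.2e-05) and 0.66 in WT males (SE 0.10, adjusted p = 0.00041). Cry1 had 615, 524, 531, 491 and 388 normalized counts in HT lithium males, against 381, 345, 410, 346 and 393 in HT vehicle males. All but the lowest HT lithium male lay above every HT vehicle male, and Cry1 rose by 0.43 on the log2 scale (SE 0.10, adjusted p = 0.0019). Nr1d1 had a difference of -0.30 in HT lithium males (adjusted p = 0.0604). In HT males 2 of 10 members were called, both higher, beside 13.2% of all genes, a share of the same order. Striatal markers summed to 7824, 8270 and 9394 normalized counts (lowest, median, highest) in HT lithium males and to 6868, 19583 and 22164 in HT vehicle males, which held the 3 highest libraries of all 60. Of the 15 markers, 13 were called lower in HT lithium males, beside the same 13.2% of all genes called. Glucocorticoid-induced genes summed to 28233 to 31466 normalized counts in HT lithium males and 22303 to 24165 in HT vehicle males, without overlap. The part of either list in the Per2 and Cry1 results was not tested.

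In WT males 6 of 10 members were called, all higher with lithium, beside 1.75% of all genes, and their median log2 difference was 0.36, against 0.00 over all genes. Besides Per2 and Cry1 (0.36, adjusted p = 0.0337), they were Ciart, Per3, Dbp and Nr1d2. The WT vehicle males, the reference here, had the lowest group mean of the 12 groups for Per2, Per3, Cry1, Dbp and Nr1d2. The WT lithium males had the highest group mean for Ciart, Per3 and Nr1d2. The differences thus rest on a low reference group as well as on the lithium males. Ciart had 504, 532, 536, 560 and 578 normalized counts in WT lithium males, against 422, 287, 356, 376 and 383 in WT vehicle males. No library overlapped, and the log2 difference was 0.58 (SE 0.13, adjusted p = 0.0121). Per3 had 1517, 1567, 1567, 1777 and 1561 normalized counts in WT lithium males, against 1297, 1146, 1094, 1206 and 1259 in WT vehicle males. Again no library overlapped, with a difference of 0.41 (SE 0.09, adjusted p = 0.0103). Dbp had 1519, 1870, 1766, 1999 and 2249 normalized counts in WT lithium males, against 1687, 1038, 1250, 1319 and 1349 in WT vehicle males. The lowest lithium male lay under the highest vehicle male, and Dbp rose by 0.51 on the log2 scale (SE 0.13, adjusted p = 0.0328).

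Nr1d2 had 3139, 3103, 3039, 3849 and 3081 normalized counts in WT lithium males, against 2540, 2398, 2405, 2541 and 2662 in WT vehicle males. The groups did not overlap, and Nr1d2 rose by 0.36 (SE 0.09, adjusted p = 0.0287). Tef had a difference of 0.16 (adjusted p = 0.114), Per1 of 0.07 (adjusted p = 0.763), Nr1d1 of -0.04 (adjusted p = 0.886) and Arntl of -0.16 (adjusted p = 0.344). Per2 was the only member of the 6 whose call held whichever library was left out. Without replicate 4 of the WT lithium males, adjusted p was 0.0571 for Per3, 0.0515 for Ciart, 0.149 for Nr1d2 and 0.111 for Dbp, and without replicate 2 of the WT vehicle males it was 0.0539 for Ciart, 0.0679 for Nr1d2 and 0.109 for Dbp. In all, the call was lost in 7 of 10 such fits for Dbp (adjusted p up to 0.111), 6 for Cry1 (up to 0.147), 4 for Nr1d2 (up to 0.149), 2 for Ciart and 1 for Per3. The summed level of 21 glucocorticoid-induced genes was 30258 to 31451 normalized counts in WT lithium males and 22810 to 25645 in WT vehicle males, and 9 of the 21 rose. Olfactory bulb markers summed to 1092 to 4630 normalized counts in WT lithium males and 4736 to 10507 in WT vehicle males, without overlap, and 0 of the 10 were called. The part of either list in the clock gene result was not tested.

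In females, lithium was read the same way. In HT females 2 of 10 members were called, both lower, beside 1.23% of all genes. Nr1d1 had 2288, 2617, 2087, 3160 and 2854 normalized counts in HT lithium females, against 3512, 3311, 3616, 3364 and 3319 in HT vehicle females. Dbp had 1541, 1511, 1299, 1741 and 2049 normalized counts in HT lithium females, against 2358, 2149, 2227, 2163 and 2352 in HT vehicle females. Neither gene overlapped between the groups, and the log2 differences were -0.41 for Nr1d1 (SE 0.11, adjusted p = 0.0415) and -0.48 for Dbp (SE 0.13, adjusted p = 0.0475). Neither call held with single libraries left out: Nr1d1 lost its call in 8 of 10 fits with 1 library left out (adjusted p up to 0.153) and Dbp in 9 of 10 (up to 0.173). With depth as a covariate, adjusted p was 0.14 for Nr1d1 and 0.094 for Dbp, and lithium and vehicle females did not overlap in depth. With the replicate number as a block, adjusted p was 0.0523 for Nr1d1 and 0.0594 for Dbp. In WT females 0.814% of all genes were called by limma and 0 members were, with 3 members at an unadjusted p under 0.05, 0 members by edgeR and 1 by DESeq2. The smallest adjusted p there belonged to Nr1d1, with a difference of -0.39 (SE 0.11, adjusted p = 0.0639). Per2 and Cry1 were not called in females of either genotype. Per2 had a difference of 0.35 in HT females (adjusted p = 0.0655) and 0.12 in WT females (adjusted p = 0.618). Cry1 had 0.13 in HT females (adjusted p = 0.563) and 0.24 in WT females (adjusted p = 0.211).

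**Figure D3:**
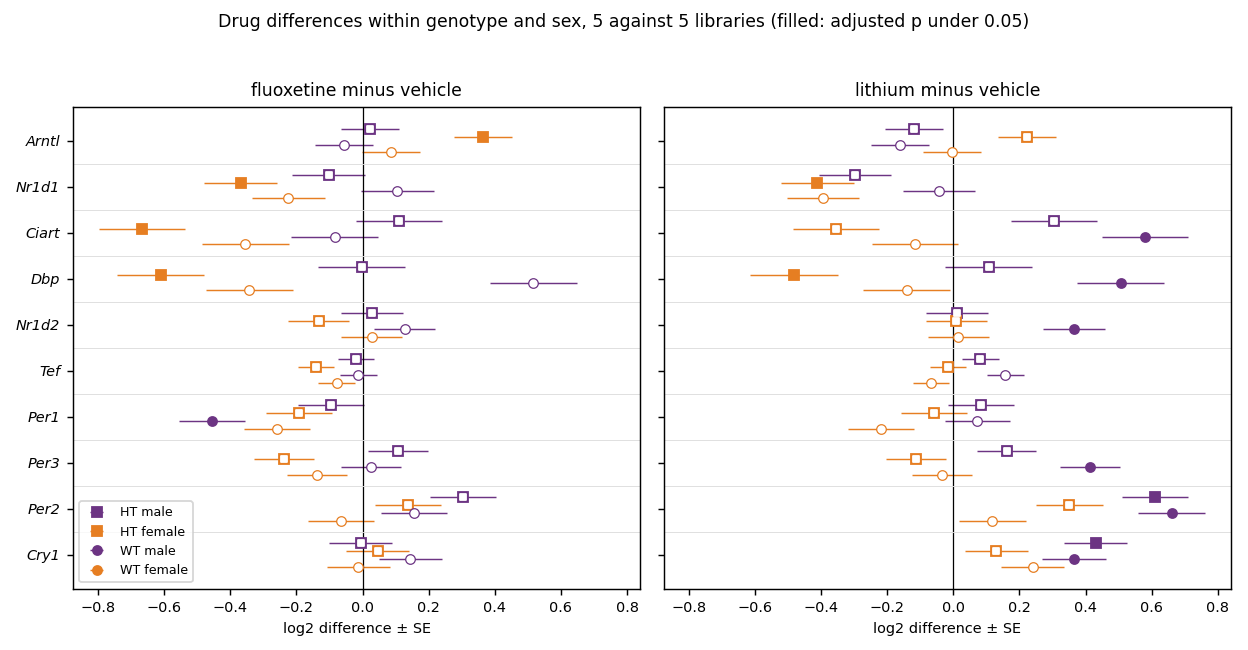
Log2 differences of each clock gene for each drug against vehicle (horizontal axes) within the 4 combinations of genotype and sex, with SE as lines and filled points for calls. Ciart ranges between -0.67 in HT fluoxetine females and 0.58 in WT lithium males.

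Fluoxetine against vehicle over both genotypes and sexes called 2 of 10 members, both lower, beside 14.5% of all genes, so the count is near the background. Fluoxetine is a serotonin reuptake inhibitor, and it is compared here with the same 20 vehicle libraries as lithium. Per1 ranged over 2029, 2887 and 3709 normalized counts in 20 fluoxetine libraries and over 2961, 3449 and 3876 in the vehicle libraries. The fluoxetine median lay under the lowest vehicle library, and Per1 fell by 0.25 on the log2 scale (SE 0.05, limma adjusted p = 0.00045, 18 of 20 libraries). Ciart ranged over 252, 361 and 476 normalized counts in fluoxetine libraries and over 287, 406 and 602 in vehicle libraries. The ranges overlapped widely, with a difference of -0.25 (SE 0.07, adjusted p = 0.0066, 12 of 20 libraries). Per2 had 0.13 (adjusted p = 0.0655), Nr1d1 -0.15 (adjusted p = 0.0595) and Arntl 0.10 (adjusted p = 0.0991). With depth as a covariate no member was called, and Per1 had a difference of -0.15 (adjusted p = 0.376) and Ciart one of -0.21 (adjusted p = 0.328).

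Immediate early genes, which neurons switch on after activity, moved beside Per1. Of 25 listed, 12 were lower and 2 higher in fluoxetine than in vehicle libraries, beside 14.5% of all genes called, with a median log2 difference of -0.18, against 0.00 over all genes. In WT mice Per1 fell by 0.36 with fluoxetine (SE 0.07, adjusted p = 0.0081, 10 of 10 libraries), the only member called beside 0.208% of all genes. In the same comparison Arc fell by 1.08, Fos by 0.75, Junb by 0.74 and Nr4a1 by 0.74. In WT males Per1 had 2963, 2838, 2292, 2095 and 2403 normalized counts with fluoxetine, against 3808, 2961, 3615, 3459 and 3327 with vehicle. Only the highest fluoxetine male reached the lowest vehicle male, and the difference was -0.45 (SE 0.10, adjusted p = 0.0424), the only member called beside 0.0786% of all genes. That call was lost in 7 of 10 fits with 1 library left out (adjusted p up to 0.173), and in WT mice of both sexes the call was lost when only those 20 libraries entered the fit (adjusted p = 0.0823) or with depth as a covariate (adjusted p = 0.41). Immediate early genes summed to 31305 to 39981 normalized counts in WT fluoxetine males and 40803 to 50165 in WT vehicle males. Other groups did not all go this way. The median sums with fluoxetine and vehicle were 40404 and 37554 in WT females, 49999 and 44240 in HT females, and 39814 and 43360 in HT males. The part of these genes in the Per1 result was not tested.

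In HT mice fluoxetine called 5 of 10 members beside 10.2% of all genes. Arntl rose by 0.19 (adjusted p = 0.0341) and Per2 by 0.22 (adjusted p = 0.0367), while Nr1d1 fell by 0.24 (adjusted p = 0.0405), Ciart by 0.28 (adjusted p = 0.0408) and Dbp by 0.31 (adjusted p = 0.0257). All 5 lay close to the threshold. Leaving out 1 of the 20 libraries ended the call of Nr1d1 in 12 fits, of Ciart in 10, of Per2 in 9, of Arntl in 8 and of Dbp in 3, with adjusted p of at most 0.103, and depth as a covariate ended all 5.

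In HT females, 3 members fell and Arntl rose with fluoxetine. Ciart had 344, 343, 362, 306 and 334 normalized counts in HT fluoxetine females, against 511, 599, 511, 474 and 602 in HT vehicle females. Dbp had 1360, 1561, 1798, 1514 and 1194 normalized counts in HT fluoxetine females, against 2358, 2149, 2227, 2163 and 2352 in HT vehicle females. For both genes every fluoxetine female lay far under every vehicle female. Ciart fell by 0.67 (SE 0.13, adjusted p = 0.0021) and Dbp by 0.61 (SE 0.13, adjusted p = 0.0036). Arntl had 964, 913, 994, 1077 and 1050 normalized counts in HT fluoxetine females, against 767, 755, 785, 796 and 774 in HT vehicle females. It moved the other way, again with no overlap, and rose by 0.36 on the log2 scale (SE 0.09, adjusted p = 0.0079).

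Nr1d1 had 2745, 2190, 3169, 2739 and 2503 normalized counts in HT fluoxetine females, against 3512, 3311, 3616, 3364 and 3319 in HT vehicle females. These groups did not overlap either, with a difference of -0.37 (SE 0.11, adjusted p = 0.0308). In all, 4 of 10 members were called in HT females beside 6.86% of all genes. The calls of Arntl, Ciart and Dbp held with each of the 10 libraries left out and with depth as a covariate (adjusted p = 0.0461 for Arntl, 0.0106 for Ciart and 0.0101 for Dbp). Nr1d1 lost its call in 6 of the 10 fits with a library left out (adjusted p up to 0.1) and with depth (0.12). The 5 HT vehicle females enter both drug comparisons. Among the 12 groups they had the highest group mean of Dbp and of Nr1d1, and the lowest of Arntl. Their mean of Ciart, 539 normalized counts, lay just under the highest, 542 in WT lithium males. The HT fluoxetine females had the lowest group mean of Ciart and the highest of Arntl.

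In HT males fluoxetine called 0.595% of all genes and 0 members by limma, with 1 member at an unadjusted p under 0.05 and 0 by DESeq2 and by edgeR. In WT females limma called 0 genes, with 1930 genes and 4 members at an unadjusted p under 0.05, while DESeq2 called 4 genes and 0 members and edgeR called 0 genes. There Ciart had a difference of -0.35 and Dbp one of -0.34, each with an SE of 0.13. In WT males Dbp had a difference of 0.52 (SE 0.13, adjusted p = 0.111), with all 5 fluoxetine libraries above the vehicle mean.

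Fluoxetine was set against lithium directly, and 8 of 10 members were called beside 32.9% of all genes. With fluoxetine Ciart was lower by 0.35 on the log2 scale (adjusted p = 2.9e-05), Per2 by 0.30 (adjusted p = 6.1e-06), Cry1 by 0.25 (adjusted p = 5.4e-05), Per1 by 0.22 (adjusted p = 0.00047), Per3 by 0.17 (adjusted p = 0.0031) and Tef by 0.10 (adjusted p = 0.0032). Arntl was higher by 0.12 (adjusted p = 0.028) and Nr1d1 by 0.14 (adjusted p = 0.0453). For Per2, all 20 fluoxetine libraries lay under the mean of the lithium group of their own genotype and sex. The Nr1d1 call was lost in 19 of 40 fits with 1 library left out (adjusted p up to 0.0872). The Arntl call was lost without replicate 4 of the HT lithium males (adjusted p = 0.058) or replicate 5 of the WT fluoxetine females (adjusted p = 0.0507). With depth as a covariate Arntl, Nr1d1 and Per3 were not called.

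Males and females were compared in a set of tests added after the values had been seen. Over all treatments 1.19% of all genes and 0 members were called between males and females by limma, with 3 members at an unadjusted p under 0.05 and 0 by DESeq2 and by edgeR. In vehicle mice Dbp ranged over 1038, 1412 and 2119 normalized counts in 10 males and over 1294, 2179 and 2388 in 10 females. Males lay lower as a group, with overlap, and Dbp was lower in vehicle males by 0.51 (SE 0.09, adjusted p = 0.0019), 1 of 10 members beside 0.124% of all genes. This call was lost when only the vehicle libraries entered the fit (adjusted p = 0.0721). Ciart had a difference of -0.39 (adjusted p = 0.0632), Per2 of -0.29 (adjusted p = 0.0892), Per3 of -0.24 (adjusted p = 0.155) and Arntl of 0.18 (adjusted p = 0.451). Between fluoxetine males and females 1.53% of all genes and 0 members were called, with 2 members at an unadjusted p under 0.05. Between lithium males and females 0.152% and 0 members were called, with 3 members at an unadjusted p under 0.05, and DESeq2 and edgeR called 0 members in either treatment.

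Whether a drug acted differently in males and females was tested as an interaction. Over both genotypes, the fluoxetine response of Dbp was higher in males than in females by 0.73 on the log2 scale (SE 0.13, adjusted p = 0.0152), and Dbp was 1 of 2 genes called, 0.0112% of all. The lithium response of Ciart was higher in males by 0.68 (SE 0.13, adjusted p = 0.0292), and Ciart was likewise 1 of 2 genes called, again 0.0112%. The lithium response of Dbp differed by 0.62 between males and females (SE 0.13, adjusted p = 0.0861), and the fluoxetine response of Ciart by 0.52 (SE 0.13, adjusted p = 0.201). For Per2 the lithium response differed by 0.40 (SE 0.10, adjusted p = 0.277). The other genes called were Marc2 with fluoxetine (0.33) and Edn3 with lithium (0.67), named here after their values were seen. The Dbp call was lost when HT vehicle male 1 and WT fluoxetine male 2 were left out together (adjusted p = 0.0896), a pair chosen because earlier work on these data had set it apart. The Ciart call was lost in 19 of 40 fits with 1 library left out (adjusted p up to 0.0837), and with depth as a covariate (adjusted p = 0.191). Dbp also differed between vehicle males and females, and those vehicle libraries, with the HT males high in striatal markers among them, enter both interactions; the part of those markers was not tested.

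Within 1 genotype, the same interactions called 0 genes by limma, 0% in each of 4 tests. In HT mice 1214 genes and 4 members stood at an unadjusted p under 0.05 for fluoxetine and 2117 genes and 5 members for lithium. In WT mice 1222 genes and 2 members did so for fluoxetine and 2218 genes and 8 members for lithium. DESeq2 called 1 member in WT mice for fluoxetine and 0 in the other tests, and edgeR called 0 in all 4. The largest member difference was 0.86 for Dbp in WT mice with fluoxetine (SE 0.19, adjusted p = 0.27).

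The libraries labelled HT and WT were compared over all treatments and within each. Per2 was higher in libraries labelled HT by 0.14 on the log2 scale (SE 0.04, adjusted p = 0.0355, 24 of 30 libraries), the only member called beside 5.06% of all genes. Its range was 1063, 1579 and 2276 normalized counts in HT libraries and 1071, 1467 and 2079 in WT libraries (lowest, median, highest), which overlapped almost wholly. The call was lost in 11 of 60 fits with 1 library left out, with adjusted p of at most 0.0547. Every member had a positive HT difference over all treatments, between 0.01 for Dbp and 0.14 for Per2, and Arntl had 0.05 (adjusted p = 0.425).

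Within treatments limma called 0 members between HT and WT mice, beside 0.135% of all genes in fluoxetine mice, 0.573% in lithium mice and 0.152% in vehicle mice. The members at an unadjusted p under 0.05 numbered 4 in fluoxetine mice, 0 in lithium mice and 4 in vehicle mice. Within sex as well limma called 0 members. The share of all genes called was 0.0786% in fluoxetine males, 0% in fluoxetine females, 0.225% in lithium males, 0% in lithium females, 0.0112% in vehicle males and 0.00562% in vehicle females. In these 6 tests 3, 0, 0, 2, 3 and 1 members, in the order just given, stood at an unadjusted p under 0.05, and 2564, 728, 2432, 1717, 1634 and 1057 genes did. DESeq2 and edgeR also called 0 members in each of the 9 tests within treatment. The largest of these member differences was 0.35 for Per1 in fluoxetine males (SE 0.10, adjusted p = 0.107). The difference between genotypes in the drug response called 0 genes by limma, 0% for fluoxetine and 0% for lithium, with 3 members and 786 genes at an unadjusted p under 0.05 for fluoxetine and 1 member and 996 genes for lithium, and 0 members by DESeq2 and by edgeR.

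A shift in phase, or a different time of collection, can move Arntl against the genes that peak opposite to it. The signs of the differences were therefore read for Arntl against Ciart, Dbp, Nr1d1, Nr1d2, Per3 and Tef. These signs leave out Per1, Per2 and Cry1, so they cover only part of what such a shift could move. In HT fluoxetine females all 6 differed from vehicle in the opposite direction to Arntl, with a median of -0.30 on the log2 scale against 0.36 for Arntl. In WT lithium males 5 of 6 did so, with a median of 0.39 against -0.16 for Arntl, and the exception was Nr1d1. In vehicle males against vehicle females all 6 did so, with a median of -0.22 against 0.18. In all 4 tests of sex by drug within a genotype, and in both tests of genotype by drug, all 6 likewise had the opposite sign to Arntl. These tests share their vehicle libraries. Some of the signs rest on values near 0: Nr1d2 had 0.002 for sex by lithium in HT mice. Per3 had -0.009 for genotype by fluoxetine, and Tef had -0.012 for genotype by lithium. In alternative runs these signs changed in 15 of 33 for Nr1d2, 12 of 53 for Per3 and 7 of 53 for Tef. The tests of sex by drug over both genotypes average those within a genotype, so their signs follow and are not counted. The pattern was not general. Of the other drug differences within sex, 5 of 6 had the opposite sign to Arntl in WT fluoxetine females, HT lithium females and HT lithium males, 4 in WT fluoxetine males, 3 in HT fluoxetine males and 1 in WT lithium females. Between HT and WT mice the number was 1 in fluoxetine males, 4 in fluoxetine females, 6 in lithium males, 1 in lithium females, 0 in vehicle males and 6 in vehicle females. Several of these differences of Arntl lay near 0 (-0.01 in WT lithium females), where the sign says little. For lithium over all mice 4 of 6 had the opposite sign to Arntl, whose own difference was only -0.02. Nr1d1, which fell, was not among the 4, while Per2 and Cry1, which peak later than Nr1d1, rose. Whether this order goes with a shift in phase was not tested. Between all HT and WT libraries 0 of 6 had the opposite sign to Arntl.

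The mean log2 level of these 6 genes minus that of Arntl gives 1 value per library, used here as a description. It had a median of 0.94 in HT fluoxetine females (0.75 to 1.04), 1.20 in HT lithium females (0.92 to 1.43) and 1.64 in HT vehicle females (1.57 to 1.70), which was the highest of the 12 groups. In HT males the medians were 1.11 with fluoxetine, 1.24 with lithium and 1.15 with vehicle. In WT females they were 1.10 with fluoxetine, 1.27 with lithium and 1.20 with vehicle, where single libraries spread over 0.93 to 1.89. In WT males the medians were 1.22 with fluoxetine, 1.43 with lithium (1.36 to 1.70) and 0.97 with vehicle (0.71 to 1.23). The HT vehicle females were thus tightly grouped near the top of the scale, whose lowest library, a WT fluoxetine female, stood at 0.64, while the WT vehicle females were spread widely. Collection times are not given in the sources used here, so a drug effect on phase and a difference in the time of collection between groups cannot be told apart.

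**Figure D4:**
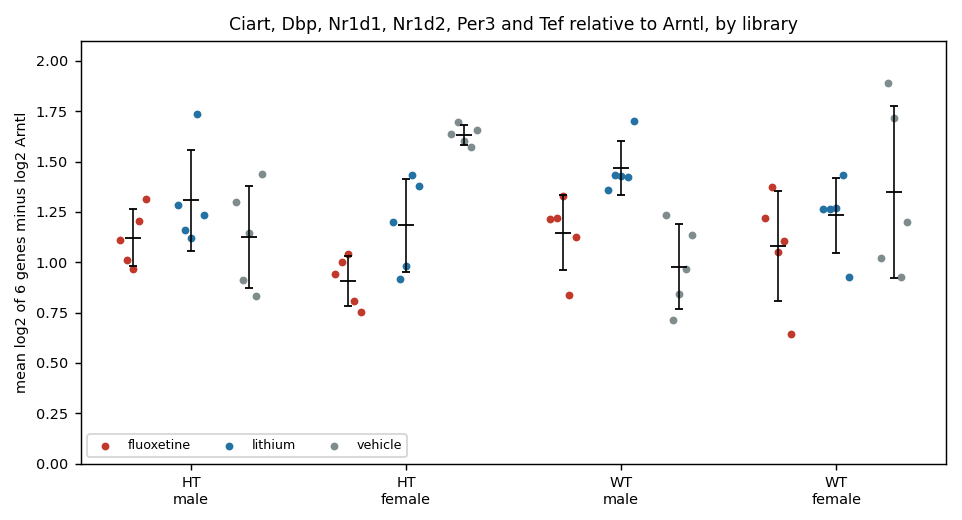
Mean log2 level of Ciart, Dbp, Nr1d1, Nr1d2, Per3 and Tef minus the log2 level of Arntl (vertical axis), for each library (points) in the 12 groups, with mean ± SD as bars. HT vehicle females lie between 1.57 and 1.70, WT vehicle females between 0.93 and 1.89.

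Within groups, the members also varied together from library to library. Deviations from the group means were correlated over 60 libraries for all 45 pairs of members, with permutation within groups and Benjamini-Hochberg adjustment, and 19 pairs passed, 16 positive and 3 negative. Ciart and Dbp had the highest correlation, with Pearson's r = 0.74 and Spearman's rho = 0.71 (adjusted permutation p = 0.00045, where 100000 permutations give no unadjusted p under about 1e-05). It was 0.75 without the 2 libraries farthest from the median, and 0.66 in fluoxetine, 0.66 in lithium and 0.88 in vehicle libraries. Ciart and Tef followed with r = 0.60, Per2 and Tef with 0.58 and Per1 and Ciart with 0.56. The 3 negative pairs all held Arntl, paired with Ciart (r = -0.52, rho = -0.53, adjusted permutation p = 0.0027), Per3 (r = -0.48, rho = -0.43, adjusted permutation p = 0.0158) and Dbp (r = -0.46, rho = -0.49, adjusted permutation p = 0.0133). Each stayed between -0.43 and -0.49 without the 2 farthest libraries. The correlation of Nr1d1 with Arntl was -0.04. These libraries share depth scaling and tissue dissection, whose parts in the correlations were not tested.

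**Figure D5:**
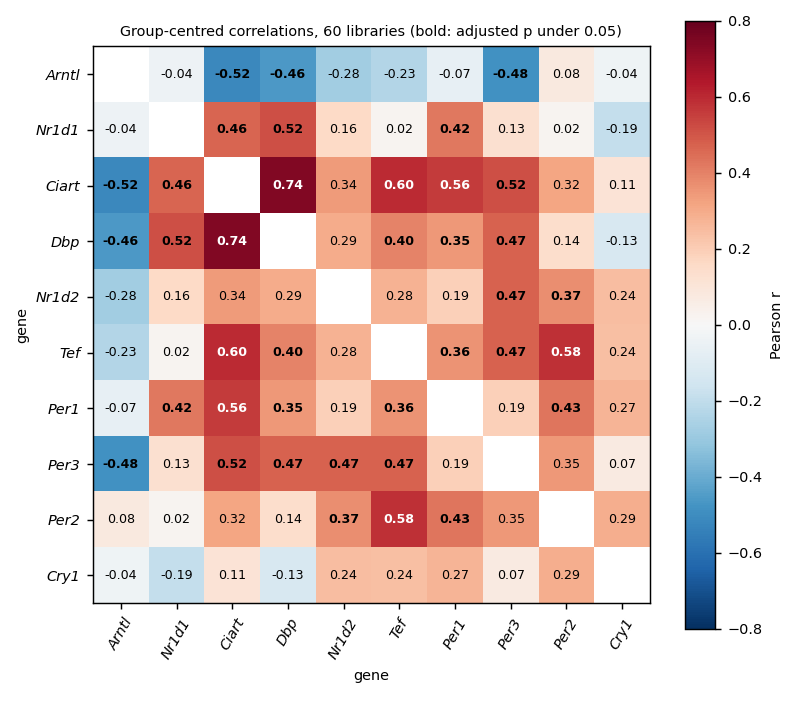
Pearson's r between the deviations of the clock genes from their group means over 60 libraries, for every pair of members, with bold figures for an adjusted p under 0.05. Ciart and Dbp stand at 0.74 and Ciart and Arntl at -0.52.

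Among 12827 other genes with enough counts, those whose deviations followed a member most closely were named over the same 60 libraries. Per1 went with Arc (r = 0.84), Dusp1 (0.81) and Junb (0.80), all immediate early genes, and 35 genes lay closer to it than its nearest member, Ciart. Ciart went with Klf15 (0.65), Tsc22d3 (0.64) and Neurl1b (0.62), and no other gene lay closer to it than Dbp. Klf15 and Tsc22d3 are glucocorticoid-induced genes. Dbp went with Epha8 (0.71), Tomm6 (0.61) and Tmem42 (0.61), Per2 with Smad3 (0.69), Tub (0.69) and Gfod1 (0.68), and Tef with Wnt4 (0.77), Hrh3 (0.76) and Actr3b (0.76). Nr1d1 went with Mnt (0.62), Cry1 with Cd302 (0.58), Per3 with Tmem181b-ps (0.73), Nr1d2 with Fnip1 (0.65) and Arntl with Spred2 (0.61). For Arntl 4656 genes had a higher r than its nearest member by highest r, Per2 (0.08). The number was 541 for Cry1, 213 for Nr1d2, 160 for Tef, 65 for Per3, 33 for Per2, 2 for Nr1d1 and 0 for Dbp.

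A list of 26 other clock genes was read beside the members, all of them tested. With fluoxetine over all mice 5 rose and 2 fell, beside 14.5% of all genes called. Npas2, the partner of ARNTL in the forebrain, rose by 0.23 (adjusted p = 0.00058), and Wee1, Csnk1a1 and Gsk3b were among the others that rose, by 0.09 to 0.13. Sik1, a kinase induced by cyclic AMP, fell by 0.43 (adjusted p = 0.0015), and Nfil3, a repressor at D-boxes, fell by 0.29. With lithium 3 rose and 2 fell, beside 22.6% of all genes called, so the count is near the background. Wee1, a cell cycle kinase under E-box control, rose by 0.13 (adjusted p = 0.0013), while Rorb, an activator at ROR elements, fell by 0.20 (adjusted p = 0.0012). Between libraries labelled HT and WT 4 were higher, beside 5.06% of all genes called, led by Cry2, a paralogue of Cry1, with a difference of 0.17 (adjusted p = 0.00078). The median of the list was 0.02 for fluoxetine, 0.01 for lithium and 0.03 for HT against WT, against 0.00 over all genes in each.

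Since Per1 and Per2 respond to hormones and activity, 2 further lists were read. Of 21 glucocorticoid-induced genes, 6 rose and 1 fell with fluoxetine over all mice, beside 14.5% of all genes called, with a median of 0.13. With lithium 18 rose and 0 fell, beside 22.6% of all genes, with a median of 0.33, against 0.00 over all genes for both drugs. Fkbp5, which encodes a chaperone of the glucocorticoid receptor, rose by 0.77 with lithium, Zbtb16 by 0.52 and Tsc22d3 by 0.41. Of 25 immediate early genes, 8 rose and 1 fell with lithium, beside the same 22.6%, with a median of 0.11. Per1 itself, with -0.03, did not pass the test for lithium. Of 9 listed markers of suprachiasmatic and hypothalamic neurons 3 were analysed here (Vip, Prokr2 and Pmch) and 2 passed the filter, and 1 rose with lithium. With Avp, Nms, Lhx1, Six6, Hcrt and Oxt absent, the list cannot tell whether such neurons were present. The part of these lists in the clock gene results was not tested.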

How the data were processed

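Prefrontal cortex RNA of 60 libraries in 12 groups of 5 was prepared with a stranded TruSeq mRNA kit, per the labels' protocols. The submitters' processing notes name Salmon (0.11.2), DESeq2 (1.19.11), R (3.6.0) and the build GRCm38; the annotation and the strand setting are not given in the sources used here. The deposited table gives a signal value, a normalized count, for 18088 genes: gene counts divided by 1 size factor per library. All values (100%) were whole multiples of a library's step within 0.01, which returned 25135647 to 36624113 reads per library and size factors of 0.85 to 1.25.

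A gene was tested where 5 or more libraries reached 10 normalized counts (17804 tested, 284 removed). The log2 of the normalized count plus 1 was fitted with limma 3.58.1 (trend, R 4.3.3) with 1 mean for each group and 48 residual degrees of freedom. Fold changes on this scale understate those of low genes. Each of 37 contrasts was adjusted by Benjamini-Hochberg over all genes and called at an adjusted p under 0.05; every adjusted p without another tool's name comes from this fit. Count tests on the recovered reads were alternatives: for lithium against vehicle edgeR 4.0.16 called 4015 genes, DESeq2 1.42.0 4141 and limma 4021, and for fluoxetine 2627, 2930 and 2581. Other alternatives were TMM and quantile scaling, filters, pseudocounts of 0.5 and 5, depth as a covariate, array weights, a replicate block, only the libraries compared, and single libraries left out. The code was tested on simulated data. Correlations, promoters and figures used Python 3.11.15 with pandas 2.3.3, numpy 2.4.6, scipy 1.17.1 and matplotlib 3.10.9.

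The members and the gene lists were chosen with earlier results of these data known, and no list serves as independent support. All members were named. Of other genes, the rule named a few called genes of the other clock gene list in the drug comparisons and the closest neighbours by correlation. Further genes of the fixed lists, among them immediate early and glucocorticoid-induced genes and Cry2, were named after their values were seen. The contrasts of sex within treatment, and of sex by drug over both genotypes, were added after the values had been seen. Labels, replicate numbers included, state no pairing, batch or date.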

Additional observations from a re-analysis of the deposited data

Results flagged for a closer look

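In 120 groups of 5 libraries (10 genes in 12 groups), 8 had a library far from the other 4. This was judged on the log2 scale, by the gap to that library's nearest neighbour as a share of the group's range. Chance flags about 1 group in 20. The 8 came from 5 libraries. Replicate 4 of the WT lithium males was high in Nr1d2, with 3849 normalized counts against 3039 to 3139 in the others (gap share 0.862), in Per3, with 1777 against 1517 to 1567 (0.793), and in Tef, with 10542 against 9142 to 9416 (0.793). Replicate 5 of the WT fluoxetine females was low in Per3, with 1052 against 1334 to 1428 (0.776), and in Dbp, with 1250 against 1506 to 1590 (0.773). Replicate 5 of the WT lithium females was low in Dbp, with 1356 against 1801 to 1826 (0.954). Replicate 4 of the WT fluoxetine males was low in Tef, with 7539 against 8577 to 8809 (0.829). Replicate 2 of the HT fluoxetine females was high in Cry1, with 476 against 425 to 435 (0.805).

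Of 80 interaction tests on the members, 2 passed: the fluoxetine response of Dbp was 0.73 higher on the log2 scale in males than in females, and the lithium response of Ciart was 0.68 higher. Both rest on the contrasts added after the values had been seen.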

How the results depend on the processing

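Of 43 called member differences over 37 contrasts, 0 reversed and 19 were called in every setting run; of 327 not called, 70 changed sign and 35 were called in some setting. The lithium calls over all mice and within genotype held in every setting, and so did Per2 and Cry1 in HT males and Per2 in WT males. Fluoxetine and vehicle libraries, and lithium and vehicle females, did not overlap in depth, which limits what the covariate can separate.

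The number of members called is given here beside its reported value where it changed by over 1.5 times. With depth as a covariate it was 0 for fluoxetine over all mice (2 reported), 0 in HT mice (5), 0 in WT mice (1), 0 in WT males (1), 5 for fluoxetine against lithium (8), 0 for lithium in HT females (2) and 0 for sex by lithium over both genotypes (1). With only the libraries compared it was 0 for fluoxetine in WT mice and in WT males, 0 for lithium in HT females and 0 for males against females under vehicle (1); fewer libraries then estimate the spread. DESeq2 called 4 for fluoxetine over all mice, 2 in WT males, 1 for lithium in WT females (0), 4 for sex under vehicle, 1 for sex by fluoxetine in WT mice (0) and 2 for sex by lithium over both genotypes. Array weights called 6, 2, 1, 5, 1 and 2 for these same comparisons in that order, and 5 for sex by lithium in WT mice (0), 3 for sex under lithium (0) and 1 for sex over all mice (0). Quantile scaling called 4 for fluoxetine over all mice and 2 for sex under vehicle. Without HT vehicle male 1 and WT fluoxetine male 2 the counts were 4 for fluoxetine over all mice, 1 for lithium in WT females, 2 for sex under vehicle and 0 for sex by fluoxetine over both genotypes (1). The cause of these moves was not tested.

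The replicate block gave 0 for lithium in HT females and 0 for sex by lithium over both genotypes, and moved no other count of members by over 1.5 times. The numbers are shared across groups as labels only: library deviations correlated with a median r of -0.009 at the same number (330 pairs, lowest -0.600) and 0.0006 at different numbers (1320 pairs).

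With single libraries left out, members called ranged over 0 to 1 for sex by fluoxetine in WT mice and 1 to 1 over both genotypes, 0 to 4 for sex by lithium in WT mice and 0 to 2 over both genotypes, 0 to 2 for HT against WT over all, 6 to 8 for fluoxetine against lithium, and 0 to 1 for sex over all mice and 1 to 4 under vehicle. For fluoxetine they ranged over 2 to 3 over all mice, 1 to 4 in HT mice, 3 to 4 in HT females, 1 to 1 in WT mice and 0 to 1 in WT males. For lithium they ranged over 3 to 4 over all mice, 3 to 3 in HT mice, 0 to 3 in HT females, 2 to 3 in HT males, 2 to 3 in WT mice, 0 to 1 in WT females and 1 to 6 in WT males. The other counts, all 0, ranged over 0 to 0.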
